A study of Mus musculus with 36 samples.

Results

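The genes described here are 44 genes of DNA replication, followed through the conversion of mouse B cells into macrophages. They were chosen by name for their known place in replication and fall into 8 role classes: the origin recognition and licensing genes (6), the MCM helicase and Mcm10 (7), Cdc45 and the GINS complex (5), the DNA polymerases and primase (9), the sliding clamp and its loader (6), RPA and Okazaki fragment processing (4), deoxynucleotide supply (3), and the E2F and cyclin E genes that control entry into S phase (4). All 44 were found in the count tables, which list 40354 genes, and all 44 were among the 17277 genes that passed the filter on low counts. The rule used no measured value, but the list was drawn up with earlier results of these data known.

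RNA-seq was performed on primary bone marrow B cells of C57BL/6J mice that carried C/EBPα fused to the estrogen receptor (ER), together with a human CD4 marker, on a retrovirus. C/EBPα is a transcription factor that turns B cells into macrophages, and the ER fusion keeps it out of the nucleus until 17β-estradiol (E2) is given. There were 3 constructs: wild-type C/EBPα (WT), C/EBPα R35A, in which arginine at that position is replaced by alanine, and C/EBPα R35K, in which it is replaced by lysine. For each, libraries were made before E2 (0 hpi) and at 1, 3, 6, 18 and 120 hours post induction (hpi), with 2 libraries in each of the 18 groups and 36 in all.

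Every group, 0 hpi included, shared the retroviral ER fusion, selection for human CD4 and growth on inactivated mouse embryo fibroblast feeders. The medium for the conversion held interleukins, IL-7 among them, and growth factors. By the paper's methods it was replaced every 2 days with medium that lacked IL-7. At the last time point, time after induction and the lack of IL-7 therefore go together. The part of IL-7 in the values at that time was not tested. The constructs are overexpressed from a virus, and feeder cells were removed by adherence. The study's methods call the 2 libraries of a group biological replicates, and the labels do not say whether they came from separate animals or cultures, so the p-values measure the spread between these libraries. These are bulk samples: fewer cells of a type and less RNA per cell cannot be told apart.

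Replication is prepared in G1, when the origin recognition complex, Cdc6 and Cdt1 load the MCM helicase onto DNA (licensing), with geminin (Gmnn) as the inhibitor of Cdt1. Cdc45 and GINS join the MCM ring to form the active helicase, primase with polymerase α starts each strand, polymerases δ and ε extend it on the PCNA clamp, and Fen1 and Lig1 finish the lagging strand. Most of these genes are targets of E2F transcription factors and are transcribed in late G1 and S phase, and cycling pre-B cells, which divide in response to IL-7, express them strongly.

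Library totals ran from 13044456 to 23131776 counts. Levels are given as CPM, that is counts scaled by the TMM-adjusted library total, and changes as log2 fold changes with their standard error (SE) from an edgeR quasi-likelihood fit to all 36 libraries. A gene was called changed when its level differed by at least 1.5-fold with an adjusted p of at most 0.05 over all genes tested. Marker genes of both cell types followed the labels. The 10 B cell markers summed to 4271 and 4332 CPM in the WT libraries at 0 hpi and to 191 and 197 CPM at 120 hpi, and the 10 macrophage markers went from 109 and 113 to 25309 and 25591 CPM. Fibroblast markers were present as well. Without Fn1, which macrophages also express, the other 9 summed to 1949 and 2004 CPM in WT at 0 hpi, 3671 and 3673 CPM at 1 hpi, 4792 and 4891 CPM at 18 hpi and 178 and 207 CPM at 120 hpi.

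**Figure D1:**
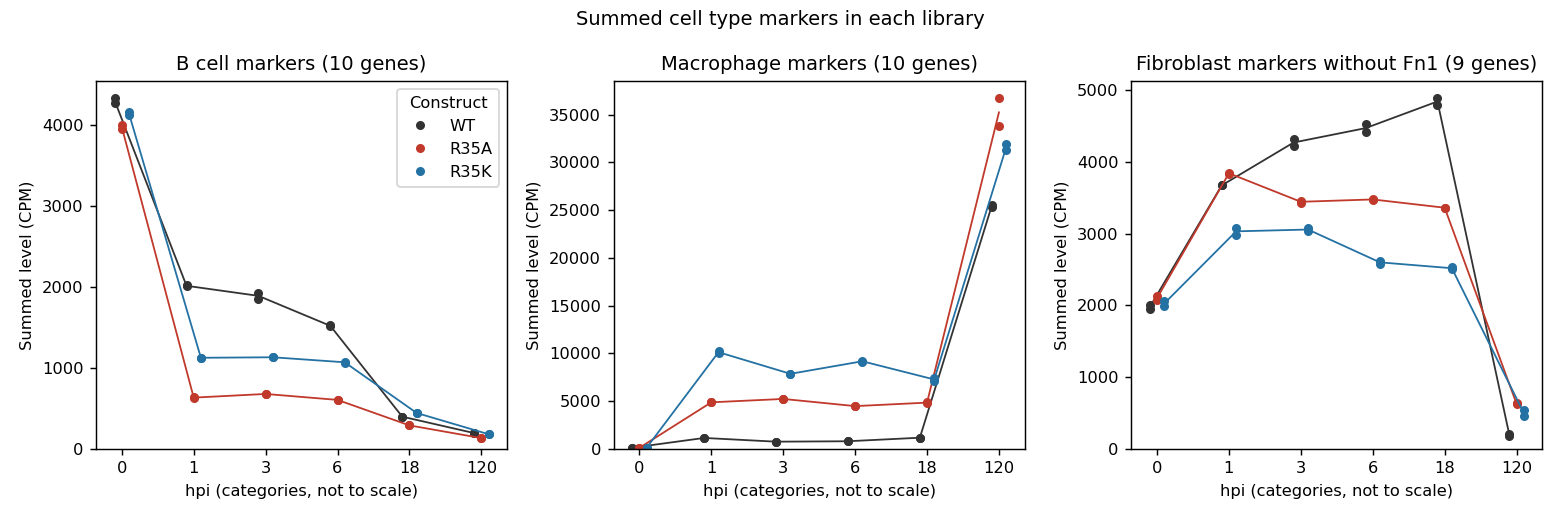
Summed CPM of 10 B cell markers, 10 macrophage markers and 9 fibroblast markers in each library (points; lines join group means), by time after induction and construct. The fibroblast sum was higher at 1 to 18 hpi than at 0 hpi in each construct and lower at 120 hpi, while the B cell sum fell from the first time point on.

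The first question was how the replication genes behaved when wild-type C/EBPα was induced. They fell together, step by step. The 44 genes summed to 5684 and 5795 CPM in the WT libraries at 0 hpi, 3189 and 3198 CPM by 1 hpi, 2815 and 2842 CPM by 3 hpi, 2266 and 2278 CPM by 6 hpi and 1112 and 1123 CPM by 18 hpi. The sum then went part of the way back, to 1867 and 1889 CPM at 120 hpi. No 2 time points overlapped. The median member stood at 56.1% of its own 0 hpi level at 1 hpi, fell to 40.6% by 6 hpi and 19.2% by 18 hpi, and was at 34.0% at 120 hpi.

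At 1 hpi 38 of the 44 genes were called lower in WT, against 9.72% of all genes tested, with a median log2 change of -0.83 beside -0.035 over all genes. The changes at this time were modest in size, and at a 2-fold threshold 3 members were called, a count given without the share of all genes. The counts of members called lower were 41 at 3 hpi (11.3% of all genes), 42 at 6 hpi (14.2%) and 44 at 18 hpi (23%). At 120 hpi 41 were lower (36.5% of all genes). The median log2 change went from -0.98 at 3 hpi through -1.30 at 6 hpi to -2.38 at 18 hpi, and stood at -1.56 when 120 hpi was reached. Through 18 hpi the fitted change of every member was below 0. Between 6 and 18 hpi alone, 35 members fell further (10.4% of all genes), with a median log2 change of -0.99. On DESeq2's size factors in place of TMM the scale of WT at 18 hpi against 0 hpi shifts by 0.12 (log2), which is small beside these changes.

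**Figure D2:**
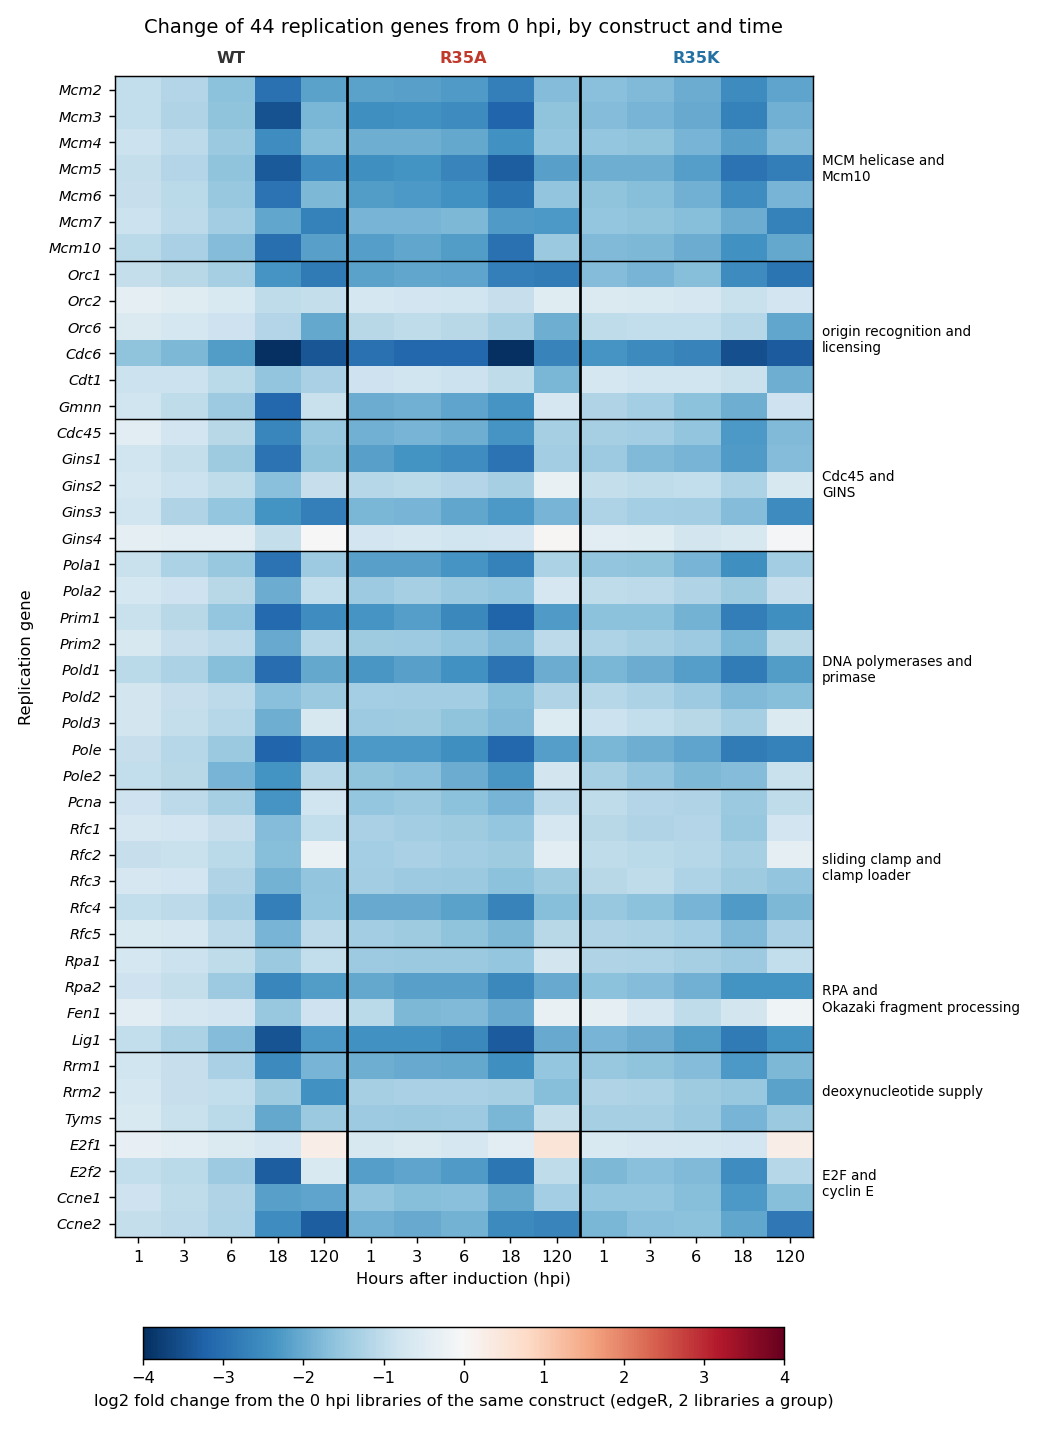
Heat map of the log2 fold change of each of the 44 genes (rows, in role classes) from the 0 hpi libraries of the same construct, by time and construct (columns). The R35A block is dark from 1 hpi on, the WT block darkens at 18 hpi, and E2f1, Orc2 and Gins4 stay pale throughout.

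Among the licensing genes, Cdc6, the loader of the MCM ring (chr11:98907801-98923940, mm10), showed the largest fall of all members at 1, 18 and 120 hpi in WT. Its level was 89.6 and 90.0 CPM in the WT libraries at 0 hpi, 28.8 and 30.4 CPM at 1 hpi, 5.55 and 5.73 CPM at 18 hpi and 8.14 and 8.51 CPM at 120 hpi. The groups did not overlap, and the log2 changes were -1.60 ± 0.065 (SE, adjusted p = 2.5e-28) at 1 hpi, -3.99 ± 0.088 (SE, adjusted p = 1.0e-41) at 18 hpi and -3.43 ± 0.09 (SE, adjusted p = 1.4e-38) at 120 hpi. Cdt1, its partner in licensing, fell less, from 122 and 129 CPM to 42.1 and 42.7 CPM at 18 hpi, a log2 change of -1.56 ± 0.062 (SE, adjusted p = 1.3e-29). Gmnn, the inhibitor of Cdt1, went from 56.0 and 58.1 CPM at 0 hpi to 6.76 and 6.25 CPM at 18 hpi and back to 29.4 and 31.8 CPM at 120 hpi. Of the origin recognition subunits, Orc1 had a log2 change of -2.37 ± 0.093 (SE) at 18 hpi, and Orc6 a smaller one of -1.17 ± 0.055 (SE), while Orc2 went from 66.4 and 63.1 to 31.5 and 33.1 CPM.

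All 7 genes of the MCM helicase class fell in WT at 1, 18 and 120 hpi. Mcm6 gave 378 and 379.7 CPM at 0 hpi, 197 and 206 CPM at 1 hpi and 48.5 and 49.8 CPM at 18 hpi. Mcm3 had the second largest fall of all members at 18 hpi, from 368 and 387 to 32.7 and 34.7 CPM, a log2 change of -3.49 ± 0.046 (SE, adjusted p = 4.8e-52). Mcm10, which helps to activate the helicase, had the second largest fall at 1 hpi, from 80.8 and 84.8 to 39.0 and 39.1 CPM, a log2 change of -1.08 ± 0.064 (SE, adjusted p = 2.6e-21). The class spanned log2 changes of -3.49 to -2.07 at 18 hpi, the smallest fall being that of Mcm7.

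Within the Cdc45 and GINS class, Cdc45 fell late. It gave 49.9 and 50.4 CPM at 0 hpi, 36.5 and 37.4 CPM at 1 hpi, when its log2 change of -0.44 ± 0.066 (SE) was short of the fold threshold, and 8.42 and 7.87 CPM at 18 hpi, with a log2 change of -2.62 ± 0.086 (SE, adjusted p = 1.6e-33). Its 1 hpi change was 16.8% of its 18 hpi change on the log2 scale, the lowest share of any member, where the median over the 44 was 35.4%. The GINS subunits were unequal, with log2 changes at 18 hpi of -2.94 ± 0.13 (SE) for Gins1, -2.40 ± 0.12 (SE) for Gins3 and -0.97 ± 0.075 (SE) for Gins4. Gins4 was back at its 0 hpi level by 120 hpi, with 29.5 and 32.0 CPM at 0 hpi, 15.8 and 15.6 CPM at 18 hpi and 30.8 and 31.2 CPM at 120 hpi.

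All 9 polymerase and primase genes were lower in WT at 1, 18 and 120 hpi. Pole, the catalytic subunit of polymerase ε, led the class at 18 hpi, going from 156 and 157 CPM to 17.9 and 16.6 CPM, a log2 change of -3.19 ± 0.06 (SE, adjusted p = 5.7e-45). The primase gene Prim1 followed with -3.11 ± 0.069 (SE) and Pold1, the catalytic subunit of polymerase δ, with -3.05 ± 0.064 (SE). The accessory subunits moved less, with Pold2 at -1.68 ± 0.081 (SE), Pold3 at -1.96 ± 0.081 (SE) and Pola2 at -1.98 ± 0.074 (SE). In the clamp class, Pcna, the sliding clamp itself, gave 246 and 244 CPM at 0 hpi, 47.9 and 47.1 CPM at 18 hpi and 143 and 139 CPM at 120 hpi. Its 120 hpi libraries were thus well above those at 18 hpi and well below those at 0 hpi, and the fall at 18 hpi was -2.37 ± 0.045 (SE, adjusted p = 1.4e-44). The annotation holds 2 processed copies of Pcna and 1 of Tyms, so reads could be shared with them.

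Rpa1, the large subunit of the protein that coats single-stranded DNA, gave 204 and 214 CPM at 0 hpi and 73.2 and 75.8 CPM at 18 hpi, a log2 change of -1.49 ± 0.047 (SE, adjusted p = 3.8e-34). Lig1, the ligase that joins Okazaki fragments, fell further, with a log2 change of -3.44 ± 0.054 (SE). Fen1, the flap nuclease of the same step, averaged 1.35 CPM over the 36 libraries, and 84.2% of its exonic length is shared with genes on the other strand, mostly Gm10143, so its values are uncertain. Which strand column of the counts was kept was not given in the sources used here. The same doubt touches Gins2, with 67.3% of its exonic length shared with Gse1 on the other strand, and Orc2, with 29.8% shared with Nif3l1.

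Among the deoxynucleotide genes, Rrm1, the large subunit of ribonucleotide reductase, gave 449 and 462 CPM at 0 hpi, 259 and 269 CPM at 1 hpi, 79.1 and 75.4 CPM at 18 hpi and 126 and 123 CPM at 120 hpi. Per kilobase of exon, its 0 hpi level in WT (41.4 CPM per kb) was below that of Mcm5 (105), Pcna (102) and Mcm3 (101). Rrm2, the partner of Rrm1 in the enzyme, differed from it in time course. It gave 276 and 278 CPM at 0 hpi, 104 and 101 CPM at 18 hpi and 52.1 and 51.6 CPM at 120 hpi, still falling after 18 hpi.

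In the class that controls S phase entry, the 2 E2F genes moved unequally. E2f2 gave 185 and 181 CPM at 0 hpi, 93.2 and 92.1 CPM at 1 hpi, 20.0 and 17.2 CPM at 18 hpi and 122 and 119 CPM at 120 hpi. E2f1 gave 47.2 and 44.7, 35.1 and 37.4, 30.0 and 28.2 and 57.7 and 52.4 CPM at the same times, the smallest fall of all members at 18 hpi, with a log2 change of -0.66 ± 0.069 (SE, adjusted p = 1.9e-12). Both cyclin E genes, whose products activate Cdk2 at the start of S phase, fell at 18 hpi, with log2 changes of -2.17 ± 0.077 (SE) for Ccne1 and -2.47 ± 0.088 (SE) for Ccne2. Ccne2 was lowest at 120 hpi, where it gave 6.19 and 5.93 CPM against 63.2 and 57.1 CPM at 0 hpi, the second largest fall of all members at that time, with a log2 change of -3.31 ± 0.11 (SE, adjusted p = 1.4e-33).

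**Figure D3:**
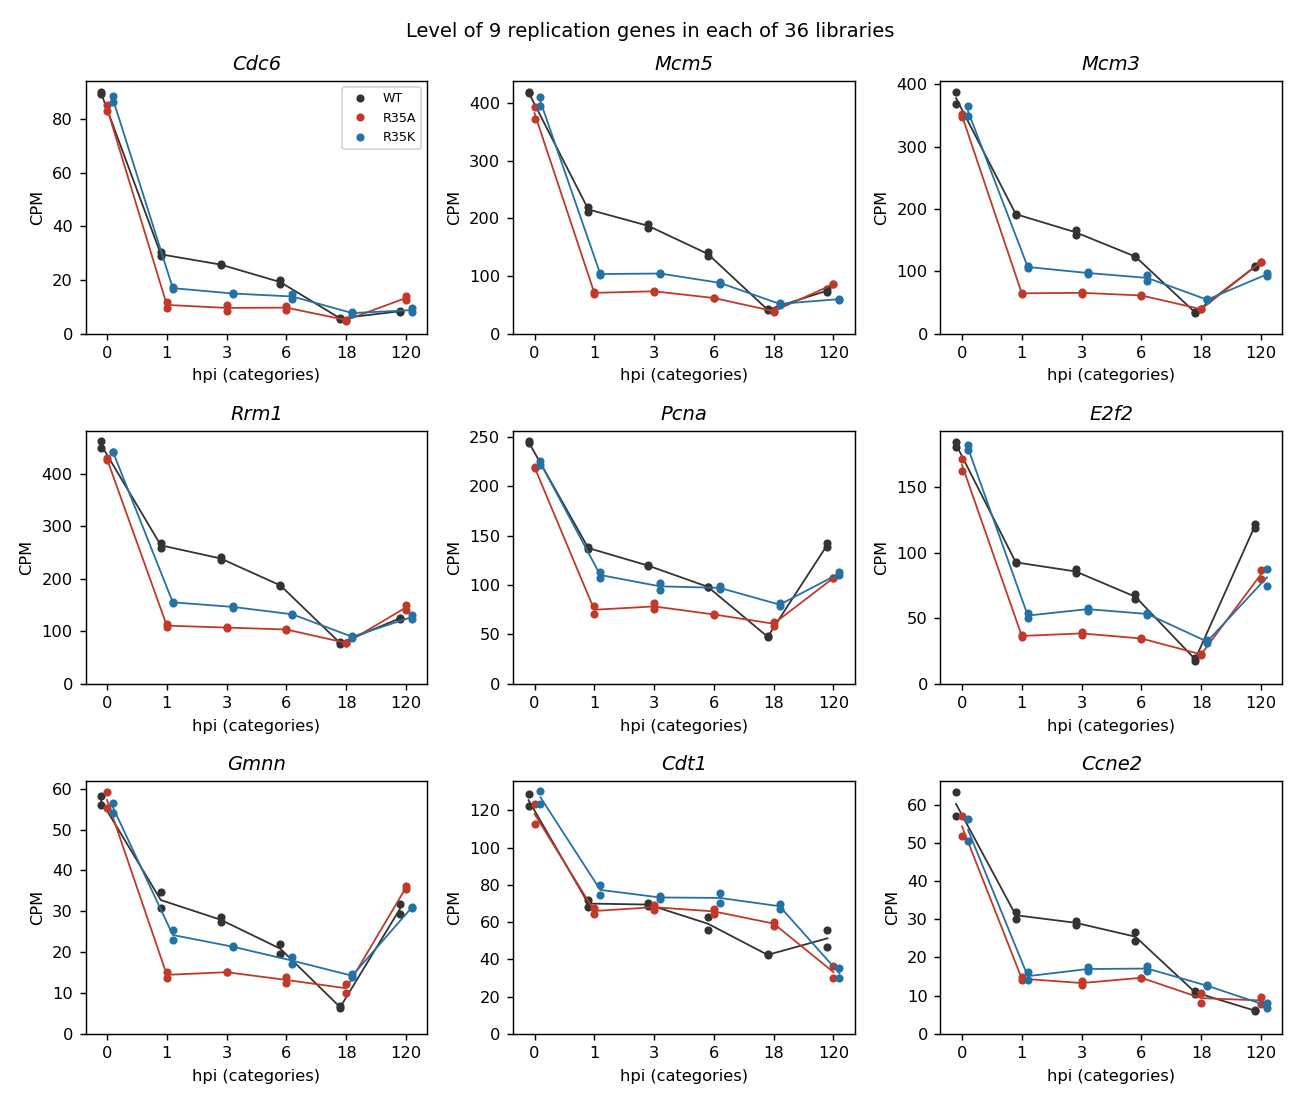
Level (CPM) of 9 replication genes in each of the 36 libraries (points; lines join group means), by time and construct. Cdc6, Mcm5, Mcm3 and Rrm1 in R35A had made most of their fall by 1 hpi, E2f2 and Gmnn were higher again at 120 hpi, and Cdt1 was lowest at 120 hpi in the mutants.

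The promoters of the members were searched for the sites through which E2F and the later cell cycle factors act. RefSeq promoter windows (GRCm38.p6, 250 bases before to 50 bases after a transcription start) were at hand for 35 of the 44 genes, 42 windows in all. The E2F site was written as TTTCCCGC, TTTGGCGC, TTTCGCGC or TTTGCCGC on either strand. It was found in 15 of the 42 windows, those of 15 genes, against 2.26% of all 32851 windows. The members were chosen by name as replication genes, most of them E2F targets, so an excess over all windows was built into the list. The CCAAT box was found in 25 of the 42 windows (37.4% of all windows) and the CHR element, TTTGAA, in 6 (17.9% of all), each searched on both strands. The 15 genes with an E2F match were Cdc6, Cdt1, Orc1, Mcm3, Mcm5, Mcm6, Mcm7, Gins3, Pola1, Pold1, Pold3, Pole2, Rfc3, Lig1 and E2f2. A match is a description of the letters, not a bound site. In 2 windows, the only one of E2f1 and one of 2 for E2f2, bases before the RefSeq start are coding sequence in GENCODE, so E2f1 is left out of the comparison of genes with and without a match. The windows of the 3 MCM genes and of Cdc6 that the results turn on are shown. Capitals mark the E2F matches, which overlap one another in Mcm5 and Mcm6.
Cdc6 (plus strand, chr11:98907901-98908200): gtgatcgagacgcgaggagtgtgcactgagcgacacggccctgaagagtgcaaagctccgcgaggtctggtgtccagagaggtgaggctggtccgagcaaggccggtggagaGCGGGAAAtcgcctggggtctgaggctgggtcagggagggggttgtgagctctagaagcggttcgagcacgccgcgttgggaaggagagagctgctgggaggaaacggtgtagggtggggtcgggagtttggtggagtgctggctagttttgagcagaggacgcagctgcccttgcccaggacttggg
Mcm5 (plus strand, chr8:75109259-75109558): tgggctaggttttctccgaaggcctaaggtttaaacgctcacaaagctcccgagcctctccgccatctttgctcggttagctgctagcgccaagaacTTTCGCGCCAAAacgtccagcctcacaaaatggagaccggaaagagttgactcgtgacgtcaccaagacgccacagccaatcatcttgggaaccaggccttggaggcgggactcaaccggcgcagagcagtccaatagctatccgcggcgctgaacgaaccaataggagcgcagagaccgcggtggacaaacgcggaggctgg
Mcm3 (minus strand, chr1:20820263-20820562): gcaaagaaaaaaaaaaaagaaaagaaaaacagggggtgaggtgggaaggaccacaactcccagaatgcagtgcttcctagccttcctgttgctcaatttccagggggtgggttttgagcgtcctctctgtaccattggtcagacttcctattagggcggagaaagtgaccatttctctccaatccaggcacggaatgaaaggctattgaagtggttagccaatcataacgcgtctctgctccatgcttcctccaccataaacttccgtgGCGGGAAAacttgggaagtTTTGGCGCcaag
Mcm6 (minus strand, chr1:128359656-128359955): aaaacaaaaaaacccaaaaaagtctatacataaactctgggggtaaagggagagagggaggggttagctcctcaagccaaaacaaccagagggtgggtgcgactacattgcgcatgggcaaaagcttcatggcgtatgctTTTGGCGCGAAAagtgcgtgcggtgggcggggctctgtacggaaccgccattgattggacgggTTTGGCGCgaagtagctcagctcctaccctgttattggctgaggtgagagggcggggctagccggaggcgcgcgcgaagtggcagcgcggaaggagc
In WT at 18 hpi the 15 genes with a match had a median log2 change of -2.95, and the 19 genes with windows but no match -2.05. In R35A at 1 hpi the medians were -2.18 and -1.47, in R35K at 1 hpi -1.61 and -1.21, and in WT at 1 hpi -0.94 and -0.72. The differences between these medians were not tested. Prim1, with a log2 change of -3.11 in WT at 18 hpi, had no match.

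The second question was whether the R35A and R35K mutants, set against WT, changed the timing of this fall. Before induction, at 0 hpi, edgeR called 0 of the 44 members, and 0% of all genes, between R35A and WT, as between R35K and WT. DESeq2 also called 0 members in each, but for R35A it gave no adjusted p for 39 of the 44, so that its count there rests on the few others. At an unadjusted p of 0.05 or less, without regard to fold, edgeR gave 19 members for R35A (43.2%, against 9.4% of all genes) and 7 for R35K (15.9%, against 5.85%). The median differences were small, at -0.09 and -0.038 on the log2 scale.

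With R35A most of the fall was seen at the first time point. The 44 genes summed to 5350.2 and 5400.1 CPM at 0 hpi, 1518 and 1521 CPM by 1 hpi, 1524 and 1532 CPM by 3 hpi, 1434 and 1443 CPM by 6 hpi, 1147 and 1169 CPM by 18 hpi and 1990.0 and 2021 CPM at 120 hpi. The levels at 1 and 3 hpi lay close together and far below those at 0 hpi. Of all genes, 37.1% were called at 1 hpi in either direction, a share not to be set beside those called lower in WT and R35K. At 1 hpi 44 of 44 members were called, each of them lower, with a median log2 change of -1.84 and a median level of 27.9% of 0 hpi. The counts were 43 at 3 hpi (18% of all genes), 44 by 6 hpi (18.5%), then 43 by 18 hpi (21%) and 37 at 120 hpi (35.3%). On the log2 scale, the median member had made 79.2% of its 18 hpi change by 1 hpi in R35A. Between 6 and 18 hpi 10 members fell further in R35A (2.69% of all genes). The same step was called for 35 members in WT, and the difference between constructs over it was not tested.

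R35K lay between the other two at the early times. Its sums were 5533 and 5605 CPM at 0 hpi, 2034 and 2059 CPM by 1 hpi, 1776 and 1780.5 CPM by 6 hpi, 1340.2 and 1377 CPM by 18 hpi and 1716 and 1778 CPM at 120 hpi. The members called lower were 41 at 1 hpi (15.4% of all genes), 43 at 3 hpi (15.1%), 44 by 6 hpi (15.6%), then 44 by 18 hpi (19.2%) and 39 at 120 hpi (35.5%). The median log2 change was -1.33 at 1 hpi and -1.97 at 18 hpi. From 6 to 18 hpi 10 members fell further (4.4% of all genes). The R35K counts were deposited in a table of their own, so in comparisons with R35K the construct and the table cannot be told apart.

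**Figure D4:**
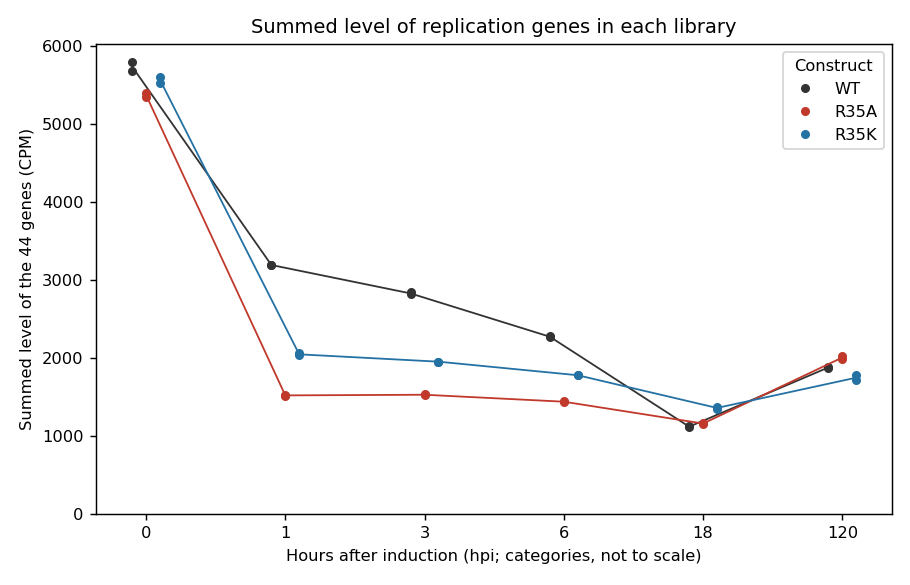
Summed level (CPM) of the 44 replication genes in each library (points; lines join group means), by time and construct. At 1 hpi the libraries stood at 3189 and 3198 CPM in WT, 2034 and 2059 in R35K and 1518 and 1521 in R35A, and at 18 hpi all 6 lay between 1112 and 1377 CPM.

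The difference in the change from 0 hpi was tested directly. At 1 hpi 36 of the 44 members had fallen further in R35A than in WT (7.89% of all genes), with a median difference of -0.98 on the log2 scale. The counts were 30 at 3 hpi (6.92% of all genes) and 19 at 6 hpi (5.86%). The 19 genes of 6 hpi were among those called at 1 and at 3 hpi: Cdc6, Orc1, Gmnn, Mcm2, Mcm3, Mcm5, Mcm6, Cdc45, Gins1, Pola1, Prim1, Pold1, Pole, Rfc4, Rpa2, Lig1, Rrm1, E2f2 and Ccne2. The 7 members called at none of these times were Cdt1, Orc2, Orc6, Gins2, Gins4, Rfc2 and E2f1. At 18 hpi 1 member, Gmnn, differed and was higher in R35A, a count below the share of all genes (5.62%). The differences of all 44 ran from -0.52 to 0.76 with a median of 0.095. The count was 2 without WT replicate 1 of 0 hpi, R35A replicate 2 of 0 hpi or R35A replicate 2 of 18 hpi.

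For R35K the members that had fallen further than in WT were 23 at 1 hpi (5.08% of all genes), 15 at 3 hpi (3.87%) and 2 at 6 hpi (4.53%), the last being Mcm5 and Pole. This last count was close to the share of all genes. The count at 6 hpi was 0 without R35K replicate 2 of 0 hpi, 1 without replicate 2 of either construct at 6 hpi and 4 without WT replicate 1 of 6 hpi. At 18 hpi, by contrast, 11 members were higher in R35K relative to 0 hpi (8.91% of all genes). On DESeq2's size factors the scale of this comparison shifts by -0.11 (log2). The count was then 4, without a share of all genes on that scaling. Between the mutants, 9 members were higher in R35K than in R35A at 1 hpi (4.15% of all genes) and all 44 differences were above 0, with a median of 0.41. The count was 4 on DESeq2's size factors. At later times few members separated the mutants: 2 higher in R35K at 3 hpi (2.25% of all genes), 3 at 6 hpi (4.69%) and 3 at 18 hpi (2.26%), and 3 lower at 120 hpi (0.886%). These small counts depended on single libraries. At 3 hpi the count was 1 without R35A replicate 1 of 0 hpi or R35K replicate 2 of 3 hpi, and at 6 hpi it was 1 without R35A replicate 1 of 6 hpi. At 120 hpi it was 0 without R35K replicate 2 of 120 hpi, and 1 without R35A replicate 1 of 0 hpi, R35A replicate 2 of 120 hpi or R35K replicate 2 of 0 hpi.

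Among the role classes, the median difference between R35A and WT at 1 hpi was largest for the helicase, at -1.16. All 7 MCM class genes were called lower in R35A, with differences of -1.48 to -1.01. Mcm5 (chr8:75109569-75128439, mm10) had the largest of all members. It gave 372 and 394 CPM at 0 hpi and 72.6 and 68.8 CPM at 1 hpi in R35A, 105 and 102 CPM at 1 hpi in R35K, and 419 and 419.7 CPM at 0 hpi and 219 and 212 CPM at 1 hpi in WT. The libraries of the 3 constructs at 1 hpi did not overlap, and the difference in change was -1.48 ± 0.055 (SE, adjusted p = 1.6e-29) for R35A. The difference for R35K was called as well. Mcm6 gave 81.4 and 76.6 CPM in R35A at 1 hpi, below the 133 and 133 CPM that WT gave at 6 hpi, a comparison that was not tested. With both constructs at 1 hpi, its difference in change was -1.32 ± 0.055 (SE, adjusted p = 2.1e-27).

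Cdc45 came second, with 49.3 and 45.7 CPM at 0 hpi and 12.7 and 12.5 CPM at 1 hpi in R35A and 36.5 and 37.4 CPM at 1 hpi in WT. The libraries did not overlap at 1 hpi, and the difference in change was -1.48 ± 0.10 (SE, adjusted p = 5.3e-18) for R35A. In the licensing class, Cdc6 fell from 85.3 and 83.0 CPM to 9.65 and 11.7 CPM at 1 hpi in R35A and to 16.6 and 17.3 CPM in R35K, the largest 1 hpi fall of any member in both, with log2 changes of -2.98 ± 0.076 (SE, adjusted p = 1.8e-38) and -2.37 ± 0.072 (SE, adjusted p = 5.3e-35). Mcm5 was second in both. Cdt1 was the exception: it gave 113 and 123 CPM at 0 hpi and 67.7 and 64.2 CPM at 1 hpi in R35A beside 71.7 and 68.2 CPM in WT, and its changes differed by 0.00 ± 0.082 (SE) on the log2 scale.

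All 9 polymerase and primase genes fell further in R35A at 1 hpi, Pole from 141 and 141 to 28.9 and 28.9 CPM, with a difference in change of -1.36 ± 0.073 (SE, adjusted p = 1.4e-22). Of the clamp class 5 of 6 did so, and Pcna, which gave 78.8 and 71.0 CPM in R35A, 113 and 107 CPM in R35K and 137 and 138 CPM in WT at 1 hpi, had differences of -0.72 ± 0.058 (SE, adjusted p = 1.9e-15) for R35A and -0.19 ± 0.057 (SE, adjusted p = 0.0081) for R35K, the second not called. Rpa1 gave 69.7 and 72.0 CPM in R35A at 1 hpi, with a difference of -0.76 ± 0.065 (SE, adjusted p = 1.2e-14). Rrm1 gave 108 and 113 CPM in R35A, 154 and 156 CPM in R35K and 259 and 269 CPM in WT, with differences of -1.16 ± 0.05 (SE, adjusted p = 1.2e-26) for R35A and -0.72 ± 0.05 (SE, adjusted p = 5.8e-18) for R35K. E2f2 gave 37.5 and 35.4 CPM, 50.0 and 54.1 CPM and 93.2 and 92.1 CPM in the same order, and its difference for R35A was -1.22 ± 0.073 (SE, adjusted p = 1.2e-20). Gins4 gave 18.3 and 17.7 CPM in R35A at 1 hpi and its difference was -0.38 ± 0.099 (SE, adjusted p = 0.0014), short of the fold threshold.

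The members kept much the same order of size whichever construct was induced. Across the 44 genes, the R35A change at 1 hpi and the WT change at 18 hpi had a Pearson correlation of 0.96 (Spearman 0.96), with separate 0 hpi libraries behind each, and the fitted fall of each of the 44 was smaller in R35A at 1 hpi than in WT at 18 hpi, a difference that was not tested. The genes share libraries and are not independent replicates, so these values describe the libraries only. For R35A and WT both at 18 hpi the Pearson correlation was 0.96, and for both at 1 hpi it was 0.80.

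Sums of the feeder and B cell markers were set beside these results. Without Fn1, the fibroblast markers at 1 hpi summed to 3829.9 and 3851 CPM in R35A, 3671 and 3673 CPM in WT and 2981 and 3082 CPM in R35K, from 2076 and 2125, 1949 and 2004 and 1990.3 and 2059 CPM at 0 hpi. They were higher after induction in each construct, and their part in the fall of the members was not tested. At 120 hpi the fibroblast sums were below their 0 hpi values in all constructs (619 and 634 CPM in R35A and 459.9 and 539 CPM in R35K). The B cell markers at 1 hpi summed to 2006 and 2020.3 CPM in WT, 630.0 and 634 CPM in R35A and 1121 and 1127 CPM in R35K, the same order of constructs as for the members, and their part in the members' fall was not tested. Of the other cell types looked for, T cell markers had 3 of 7 genes above the filter and erythroid markers 1 of 7, while 7 of 8 neutrophil granule genes were lower in WT at 18 hpi and the eighth, Prtn3, was higher, with a log2 change of 3.08 ± 0.18 (SE, adjusted p = 5.4e-22). A list of 10 genes used by leukocytes in general, added after the data were seen (Ptprc, Coro1a, Cd53, Vav1, Laptm5, Arhgdib, Lcp1, Dock2, Nckap1l and Was), had median log2 changes of -0.14 in WT, -0.39 in R35A and 0.18 in R35K at 1 hpi, and of -1.53, -0.29 and 0.12 at 18 hpi. The members' medians at 18 hpi were -2.38, -2.32 and -1.97.

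The last question was where the members stood at 120 hpi, when macrophage markers were high. From 18 to 120 hpi 27 members rose in WT (30.4% of all genes) and 4 fell (30.1%). In R35A 33 rose (27.1% of all genes) and 2 fell (26.6%), and in R35K 14 rose (25.6%) and 6 fell (27.1%). Against the share of all genes called higher, the counts were above it in WT and R35A and only a little above it in R35K. The counts of members that fell were below the share of all genes called lower in each construct. The 13 members that rose in each of the 3 constructs were Gmnn, Mcm3, Mcm6, Gins2, Gins4, Pola1, Prim2, Pold3, Pole2, Rfc1, Rfc2, E2f1 and E2f2.

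The largest return was that of E2f2, with 2.70 ± 0.066 (SE, adjusted p = 2.8e-40) in WT, followed by Gmnn with 2.23 ± 0.11 (SE, adjusted p = 1.5e-26). In the mutants E2f2 gave 87.0 and 79.9 CPM in R35A and 87.7 and 74.7 CPM in R35K at 120 hpi, both below the WT libraries, though the difference in change for R35A of -0.41 ± 0.07 (SE) was short of the fold threshold. The changes of E2f1 from 0 hpi to 120 hpi were above 0, at 0.26 ± 0.067 (SE, adjusted p = 4.6e-04) in WT, 0.50 ± 0.064 (SE, adjusted p = 3.5e-10) in R35A and 0.28 ± 0.065 (SE, adjusted p = 1.1e-04) in R35K, but none passed the fold threshold. It gave 40.1 and 46.6 CPM at 0 hpi and 61.2 and 62.5 CPM at 120 hpi in R35A, so those groups did not overlap.

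A small set went the other way. Orc6 fell from 18 to 120 hpi in each construct, with log2 changes of -0.88 ± 0.073 (SE) in WT, -0.60 ± 0.07 (SE) in R35A and -0.91 ± 0.072 (SE) in R35K. Mcm7, Rrm2 and Ccne2 fell in WT, with log2 changes of -0.62 ± 0.05 (SE), -0.99 ± 0.05 (SE) and -0.84 ± 0.15 (SE), and in R35K, and were not called in R35A. Cdt1 fell in both mutants, with log2 changes of -0.84 ± 0.074 (SE) in R35A and -1.08 ± 0.073 (SE) in R35K, and Gins3 in R35K, with -0.79 ± 0.17 (SE). In WT Mcm7 thus parted from the other subunits of its ring: the changes of Mcm3 and Mcm6 over the same step were 1.67 ± 0.052 (SE) and 1.15 ± 0.048 (SE) in WT. Part of Mcm7 overlaps other genes, with 8.70% of its exonic length shared with genes on the other strand and 3.90% with the microRNA genes Mir25 and Mir93 that it hosts.

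Between constructs at 120 hpi, 7 members had fallen less from 0 hpi in R35A than in WT (9.63% of all genes). The 2 with the largest differences were Gins3 and Cdc6. Gins3 gave 3.18 and 4.11 CPM in WT and 5.63 and 6.75 CPM in R35A at 120 hpi, from 23.9 and 24.4 and 22.4 and 22.8 CPM at 0 hpi, a difference in change of 0.87 ± 0.21 (SE, adjusted p = 7.6e-04). Cdc6 gave 8.14 and 8.51 CPM in WT and 13.9 and 12.7 CPM in R35A, with a difference of 0.77 ± 0.14 (SE, adjusted p = 1.1e-05). For R35K the count was not above the share of all genes (2.63%), with 1 member that differed from WT. This was Cdt1, which gave 55.9 and 46.6 CPM in WT, 35.1 and 29.8 CPM in R35K and 36.3 and 30.0 CPM in R35A at 120 hpi. Its difference in change was -0.68 ± 0.097 (SE, adjusted p = 1.1e-07) for R35K and -0.56 ± 0.097 (SE, adjusted p = 5.1e-06) for R35A, the second just short of the fold threshold. The R35K count was 0 without WT replicate 1 or R35K replicate 2 of 120 hpi and 2 without R35K replicate 1 of 120 hpi. Levels at 120 hpi compared directly gave 4 members higher (12.1% of all genes) and 1 lower (6.37%) in R35A than in WT, and 1 lower in R35K (3.97%), the last with the same dependence on single libraries. None of these counts was above the share of all genes beside it. The member lower in each mutant was Cdt1, and those higher in R35A were Cdc6, Gins3, Rrm2 and Ccne1.

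Gmnn was the member for which the constructs differed most at 18 hpi. It gave 6.76 and 6.25 CPM in WT, 12.3 and 10.0 CPM in R35A and 14.5 and 13.9 CPM in R35K, without overlap between WT and either mutant. Relative to 0 hpi the difference from WT was 0.76 ± 0.13 (SE, adjusted p = 1.1e-05) for R35A and 1.17 ± 0.13 (SE, adjusted p = 8.7e-11) for R35K. Pcna showed the same order with 47.9 and 47.1 CPM in WT, 58.7 and 62.7 CPM in R35A and 81.7 and 78.4 CPM in R35K, and differences of 0.52 ± 0.064 (SE, adjusted p = 2.4e-09), not called, and 0.89 ± 0.063 (SE, adjusted p = 1.0e-17).

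Other genes of the cell cycle were described beside the members, from lists chosen by name. For counts called lower, the shares of all genes are those given above with the members. The share for R35A at 1 hpi counts both directions, and counts called higher have no share beside them. Of 39 further replication genes, 21 were lower in WT at 1 hpi, 34 at 18 hpi and 27 at 120 hpi, when 3 were higher. In R35A 31 of the 39 were lower at 1 hpi, and 25 had fallen further than in WT. Of 20 genes of G2 and mitosis, 7 were lower in WT at 1 hpi and 20 at 18 hpi, with medians of -0.54 and -2.80. In R35A all 20 were lower at 1 hpi, and all 20 had fallen further than in WT, with a median difference of -1.42. Of 11 genes of the E2F family, its DP partners and the pocket proteins that restrain it, of which none is a member, 7 were lower in WT at 18 hpi with a median of -0.79. Of 7 CDK inhibitor genes, 3 were higher and 2 lower in WT at 18 hpi. The higher ones were Cdkn1a, Cdkn2a and Cdkn2b, with log2 changes of 0.68, 0.63 and 0.82. From 18 to 120 hpi their changes were -1.25, -0.17 and -3.72, the second not called. Fibroblast markers were also higher at 18 hpi and lower at 120 hpi. The part of the feeders in these values was not tested.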

How the data were processed

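RNA-seq was performed on 36 libraries, 2 for each of 18 groups of construct and time. The authors aligned single-end reads to mm10 with STAR 2.5.0a, which also made the deposited counts per gene, whole numbers without normalization; DESeq2 1.14.1 and FastQC are named in the submitters' processing notes. The strand setting of the counting was not given in the sources used here. The authors also deposited log2 values for 19067 genes, and 100% of these were recovered within 0.0001 as log2 of the count over a size factor plus 1; they were used for this check only. No read depth was equalised, so precision differs between totals of 13044456 and 23131776 counts.

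Groups were taken from the labels. Genes with low counts were removed with filterByExpr, leaving 17277 of 40354. Libraries were scaled by TMM, and 1 edgeR (4.0.16, R 4.3.3) quasi-likelihood model was fitted to all 36 libraries, with p-values adjusted by the Benjamini-Hochberg method over all genes tested. Each time was compared with 0 hpi of the same construct, 18 hpi with 6 hpi, and 120 hpi with 18 hpi; the changes from 0 hpi were compared between constructs, and levels were compared directly at 0 and 120 hpi. A call needed a fold change of 1.5 and an adjusted p of 0.05 or less. The scripts were tested on simulated data. Alternatives were DESeq2 (1.42.0) and its size factors, other count filters, other fold thresholds, separate fits for each count table, a replicate block and leaving out each library.

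The members and the gene lists were chosen with earlier results of these data known. Genes named with full values were, by rule, the member of highest mean CPM in each role class and the 2 members with the largest called changes in each direction, in WT at 1, 18 and 120 hpi, in R35A and R35K at 1 hpi and in the R35A against WT difference at 1, 18 and 120 hpi. Other members may be named, and were chosen after their values were seen. Gene positions and overlaps came from GENCODE vM21 and promoter windows from RefSeq.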

Additional observations from a re-analysis of the deposited data

Results flagged for a closer look

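The change from 0 hpi was tested for a difference between constructs, and each difference past the threshold is listed here. For R35A against WT 36 members were called at 1 hpi, 30 at 3 hpi and 19 at 6 hpi. A further 1 was called at 18 hpi and 7 at 120 hpi. The calls at 1 to 6 hpi were all lower in R35A, and those at 18 and 120 hpi all higher. For R35K against WT there were 23 at 1 hpi, 15 at 3 hpi and 2 at 6 hpi, all lower in R35K, 11 at 18 hpi, all higher, and 1 at 120 hpi, lower. For R35K against R35A they numbered 9, 2, 3 and 3 at 1, 3, 6 and 18 hpi, all higher in R35K, and 3 at 120 hpi, all lower. The share of all genes for each count is given in the Results. The counts for R35A against WT at 18 hpi and for R35K against WT at 120 hpi were not above their shares. That for R35K against WT at 6 hpi was close to its share. The 18 hpi count for R35K against WT was lower on DESeq2's size factors.

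Single genes with the largest differences between R35A and WT were Mcm5 (-1.48) and Cdc45 (-1.48) at 1 hpi, Gmnn (0.76) at 18 hpi, and Gins3 (0.87) and Cdc6 (0.77) at 120 hpi, all as differences in log2 change from 0 hpi. The standard error of the Gins3 difference, 0.21, was the widest of the 5.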

How the results depend on the processing

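Among the calls of members, 1087 over all comparisons tried, no call turned its sign under any alternative, and a replicate block lost 0 and gained 0. The replicate numbers did not pair the libraries: over 153 pairs of groups the median correlation of replicate differences was -0.00363, and 16 pairs were above 0.1. DESeq2's size factors lost 35 and gained 8, its Wald test lost 44 and gained 8, no filter on low counts lost 27 and gained 24, and separate fits lost 8 and gained 7 of 962. The fold threshold mattered most. The counts that follow show only how the calls of members depend on the processing, since no share of all genes was set beside them. At a 2-fold threshold the counts were 3 for WT at 1 hpi, 22 at 3 hpi, 22 from 6 to 18 hpi and 15 from 18 to 120 hpi, 0 and 16 for these 2 steps in R35A and 0 and 5 in R35K. The differences in change at 2-fold, taking the 5 times in order, were 22, 13, 3, 0 and 0 for R35A against WT, 1, 0, 0, 1 and 0 for R35K against WT, and 0, 0, 0, 1 and 0 between the mutants, and levels at 120 hpi gave 0 for each mutant. With no fold threshold the counts were 27 for R35A and 35 for R35K from 6 to 18 hpi and 37 for R35K from 18 to 120 hpi. The differences were then 39, 12 and 26 for R35A against WT at 6, 18 and 120 hpi, 36, 36, 30, 30 and 7 for R35K against WT and 29, 25, 23, 24 and 21 between the mutants at the 5 times, and 29 and 11 for levels of R35A and R35K against WT at 120 hpi. DESeq2's size factors, and its Wald test, gave 4 for R35K against WT at 18 hpi, 4 and 1 between the mutants at 1 and 3 hpi and 2 for levels of R35K against WT at 120 hpi, and the Wald test gave 1 between the mutants at 18 and at 120 hpi. No filter gave 4 and 1 between the mutants at 1 and 18 hpi. Leaving out 1 library, with the lone library of its group assumed to vary like the other groups, gave 1 to 2 for R35A against WT at 18 hpi, 0 to 4 and 0 to 2 for R35K against WT at 6 and 120 hpi, 1 to 3, 1 to 4 and 0 to 4 between the mutants at 3, 6 and 120 hpi, and 0 to 2 for levels of R35K against WT at 120 hpi. The median difference for R35K against WT at 120 hpi, near 0, turned sign to 0.043 with no filter, and ran from -0.0266 to 0.0270 over the left-out libraries. The cause of these shifts was not tested. Having 2 libraries a group limits what small differences could be seen.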
